A study of Oryza sativa with 6 samples.

Results

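In roots of the rice (Oryza sativa) cultivar IR29, 177 of 38042 loci gave reads in every root type sampled, while no read of them was counted in any root type of the cultivar Mulai. The loci were chosen by that pattern: a scaled count of exactly 0 in each of the 3 Mulai libraries and of at least 12 in each of the 3 IR29 libraries. The scaled count is the number of fragments assigned to a locus, multiplied by 1 factor per library by the authors. The cultivar difference of these loci is therefore how they were found. It is described here without a test. Which root type held most of their transcripts, how abundant they were and what they shared beyond the choice are the measurements that follow.

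Strand-specific mRNA libraries had been made from 3 kinds of root of each cultivar, 1 library each and 6 in all, with no replicate. L-type laterals are long and branch again, S-type laterals are short and unbranched, and nodal roots emerge from the stem and carry the laterals. IR29 is labelled salinity sensitive and contributed 1 L-type, 1 S-type and 1 nodal library. Mulai is labelled salinity tolerant and contributed the same 3. The labels give the same growth conditions for all plants and name no salt treatment for either cultivar. They state neither plant age nor how many plants went into a library.

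Cultivated rice varies in gene content as well as in sequence. Some genes are present in certain cultivars and missing from others, and many of these lie in families that turn over quickly, such as disease resistance genes and mobile elements. The genome build named for the study is IRGSP-1.0, which represents the japonica cultivar Nipponbare. A locus on that genome can be without reads in a cultivar because its plants lack the locus, because their copy differs too much in sequence for reads to align, or because the copy is silent in roots. The labels refer the IR29 and the Mulai libraries to separate earlier sets of records. These alternatives and a difference between the sets of libraries cannot be told apart from the counts.

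The IR29 libraries held 3891153 (L-type), 4083173 (S-type) and 4253677 reads (nodal), against 5631504 (L-type), 6246649 (S-type) and 7904454 reads (nodal) in Mulai. A read was worth between 1.15 and 1.504 units of scaled count in IR29 and between 0.601 and 0.890 units in Mulai. The Mulai zeros thus rest on deeper libraries than the IR29 values. The L-type libraries matched each other least between the cultivars. Across 20316 loci the log2 values of IR29 and Mulai correlated at r = 0.71 for L-type, 0.79 for S-type and 0.80 for nodal roots, as a description with no test. The table gives identifiers of the form XLOC_003950 and pairs none of the 177 with a gene name. Of all 38042 identifiers, 0 matched an entry in the RefSeq gene table of assembly ASM3414082v1, so that neither functions nor sequences can be given. This follows from the kind of identifier and says nothing about the 177 loci.

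Among loci at the IR29 minimum, exactly 0 Mulai reads was more frequent than any single count from 1 to 30. The choice takes the loci at 0, and loci expected to give less than 1 read also fall there. These counts therefore do not show a group apart from loci with few reads. In all, 14895 loci reached the minimum of 12 in each IR29 library, and 1.19% of them had no Mulai read. Of the same 14895 loci, 15 had 1 read summed over the Mulai libraries, 13 had 2 reads and 6 had 3 reads. From 1 to 10 Mulai reads there were 66 loci in all, and from 11 to 30 reads 80 loci. In the opposite direction, 392 of 16061 loci that reached the minimum in each Mulai library had no IR29 read (2.44%), and 32 had 1 IR29 read. The opposite count rests on shallower libraries at 0, and the factor-scaled minimum asks for different numbers of reads in each cultivar.

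**Figure D1:**
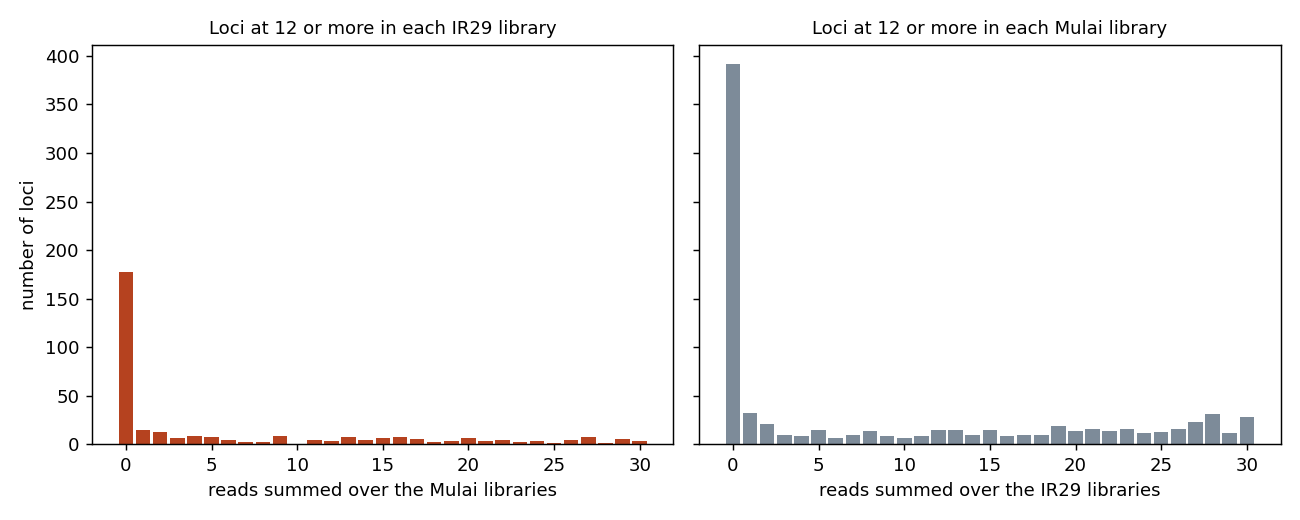
Number of loci (vertical axis) by the reads summed over the other cultivar's libraries (horizontal axis), for loci at or above 12 in each IR29 library (left) and in each Mulai library (right), shown up to 30 reads. The bar at 0 holds 177 loci on the left and 392 on the right, and no other bar on the left exceeds 15.

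The Mulai libraries had the depth to show these loci at their IR29 level. Had a locus been as abundant in Mulai as in IR29, the 3 Mulai libraries together would have held a median of 288 reads of it, and no fewer than 64.6 for any of the 177. The IR29 minimum of the choice keeps the lowest of these values from being small. A count of 0 was taken to allow up to 3 reads in a library. That is a scaled count of 2.57 in the Mulai L-type, 2.67 in the Mulai S-type and 1.80 in the Mulai nodal library. The limit was applied to each locus and library separately, with no allowance for their number. Against that limit the lowest bounds of IR29 over Mulai were 5.02-fold in L-type, 4.51-fold in S-type and 7.03-fold in nodal roots. With Mulai at 0 by choice, each bound is the IR29 value divided by the fixed limit of its root type. The IR29 minimum of the choice thus sets how low a bound can be, and nothing is read from the lowest ones. The median of these lower bounds, which follows the IR29 abundance of the loci, was 28.8 in L-type, 22.5 in S-type and 33.2 in nodal roots. These bounds cover the counting error of the Mulai zeros only. The IR29 values enter them as observed, down to 8 reads in the S-type library, so that their own counting error could lower a bound further. Reads from PCR copies are not independent molecules.

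The edge of the choice on the IR29 side was set by few reads. Just inside it lay 5 loci with a scaled count of 12.03 in the S-type library, which is 8 reads. Just outside lay XLOC_028846, with 11.7 in L-type, 31.6 in S-type and 35.7 in nodal roots of IR29 and 0 throughout Mulai. On the Mulai side the nearest loci outside were the 15 with 1 Mulai read. Their mean over the IR29 libraries ran from 30.5 to 2163, with a median of 68.3, so that abundant loci also missed the choice by a single read. Altogether 10675 loci had no Mulai read, of which 1550 had at least 1 IR29 read. Of these 1550 loci, 177 reached 12 in all 3 IR29 libraries, 70 in exactly 2 and 142 in exactly 1, and 1161 in none.

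Most of the 177 loci were of low to middling abundance. Their scaled counts ran from 12.9 to 2622 in L-type (median 73.8), from 12.03 to 2550 in S-type (median 60.2) and from 12.7 to 777 in nodal roots (median 60.0). The mean over the 3 libraries had a median of 72.1, against 166 for the other 14718 loci that met the same IR29 minimum. The share of IR29 loci at 0 in Mulai was correspondingly largest among the least abundant. It was 3.82% for means under 25 (16 of 419 loci, exact 95% binomial interval 2.198 to 6.13) and 2.43% from 25 to 50 (42 of 1726). It was 0.911% from 100 to 200 (31 of 3404), 0.123% from 500 to 1000 (2 of 1628) and 0.324% from 1000 upwards (3 of 925, interval 0.0669 to 0.945). The intervals of these shares take loci as independent. The loci read in Mulai and at 0 in IR29 also had a smaller share at 0 with rising abundance, with values of 6.09% under 25 and 0.521% from 500 to 1000.

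**Figure D2:**
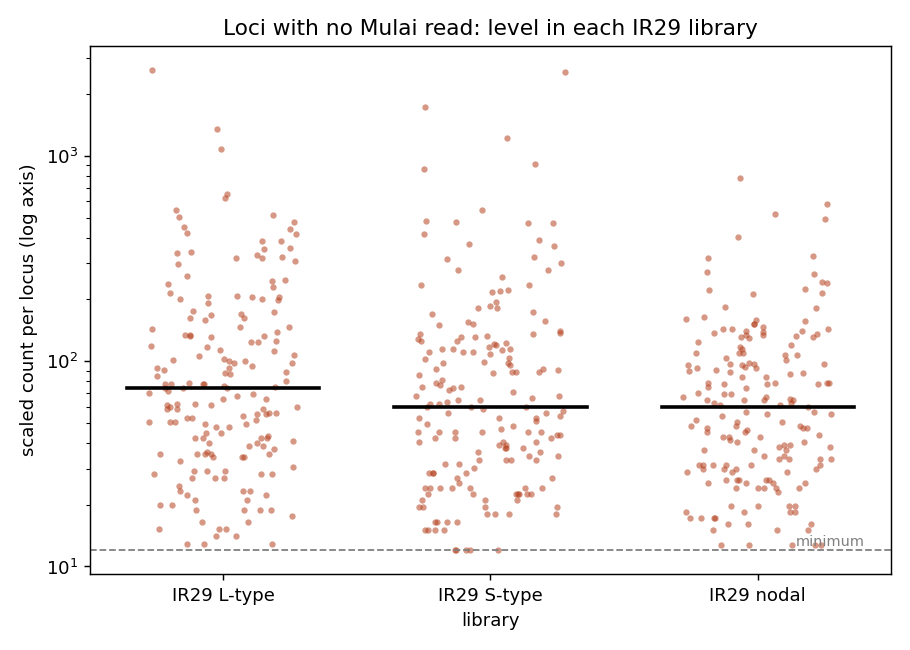
Scaled count of each of the 177 loci (points, log axis) in the IR29 L-type, S-type and nodal libraries, with the median as a bar and the minimum of 12 as a dashed line. The medians are 73.8 in L-type, 60.2 in S-type and 60.0 in nodal roots, and few loci exceed 1000.

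**Figure D3:**
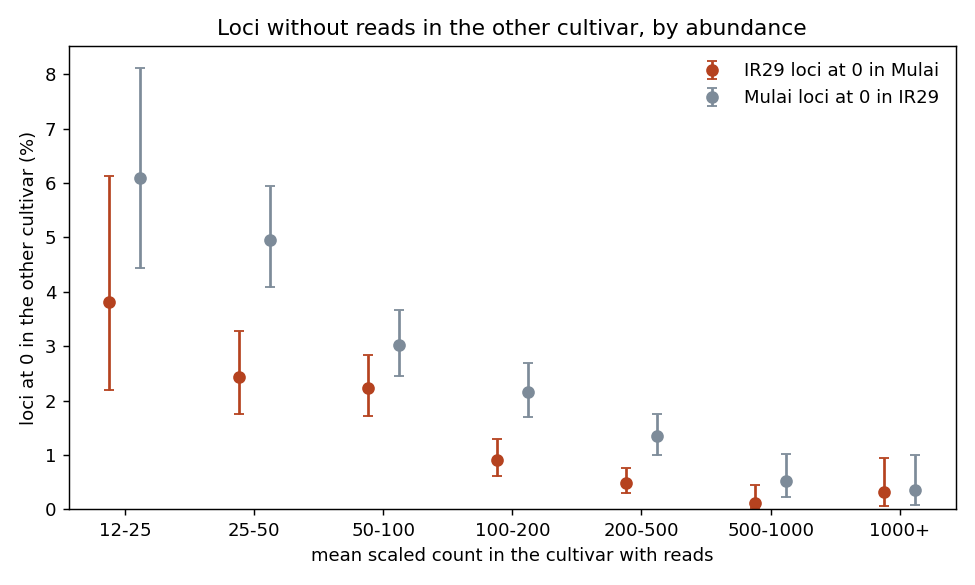
Percentage of loci with no read in the other cultivar (vertical axis, bars are exact 95% binomial intervals) by the mean scaled count in the cultivar that has reads (horizontal axis). The intervals count loci, taken as independent, and cover no variation between libraries. The share of IR29 loci at 0 in Mulai is 3.82% under 25 and 0.123% from 500 to 1000, and the share of Mulai loci at 0 in IR29 is 6.09% and 0.521%.

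The most abundant locus was XLOC_003950. It had a scaled count of 2622 in L-type, 2550 in S-type and 226 in nodal roots of IR29, from 2239, 1696 and 196 reads, and 0 in each Mulai library. Its level was thus high in both lateral root types and lower in nodal roots. Its IR29 mean exceeded that of 97.6% of the loci at the IR29 minimum. Against the limit of 3 Mulai reads it was at least 1022-fold higher in IR29 L-type roots, 955-fold in S-type and 125-fold in nodal roots. XLOC_012497 was next, with 1350 in L-type, 1229 in S-type and 777 in nodal roots of IR29 and 0 in each Mulai library. It differed little between root types, with a highest over lowest ratio of 1.74. Together the 177 loci took 0.575% of the reads in the IR29 L-type library (22356 reads, exact 95% binomial interval 0.567 to 0.582). They took 0.389% in S-type (15879 reads, 0.383 to 0.395) and 0.323% in nodal roots (13725 reads, 0.317 to 0.328). The intervals cover counting error only, with 1 library per root type. XLOC_003950 alone held 2239 of these reads in L-type, 1696 in S-type and 196 in nodal roots. The 10 most abundant loci of each library supplied 33.7% of these reads in L-type, 40.8% in S-type and 26.6% in nodal roots.

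The question within IR29 was whether loci without Mulai reads favoured a root type. They were more often higher in L-type than in nodal roots. At least 2-fold higher in L-type roots were 58 of the 177 loci (32.8%), against a background of 17.4% among all 14895 loci at the IR29 minimum, and 20 were at least 2-fold lower (11.3%, background 15.4%). The median log2 ratio of L-type over nodal was 0.45, against 0.11 for all IR29 loci. The exact 95% counting interval of the ratio lay above 1 for 87 of the 177 loci (49.2%, against 38.0% of all IR29 loci) and below 1 for 30 (16.9%, against 30.8%). At least 4-fold higher were 12 loci (6.78%, against 3.25%) and at least 4-fold lower 6 (3.39%, against 4.18%). Whether a counting interval leaves out 1 depends on the number of reads, and the 177 loci were less abundant than the others. The share of intervals below 1 was also under the background for S-type over nodal (19.8%, against 32.8%) and L-type over S-type (22.6%, against 32.9%). The share above 1 was 36.7% against 36.6% and 40.1% against 33.3% in the same order. The 177 loci and all IR29 loci met the same minimum in all 3 libraries, which limits how far a low locus can differ. Each root type of IR29 has 1 library, so that these ratios have no replicate check and no test. The IR29 L-type library was also the shallowest of the 6 and the one least like its Mulai counterpart. The part of that library in the result was not tested.

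The comparison of the lateral root types was less even. Against S-type roots, 49 of the 177 loci were at least 2-fold higher in L-type (27.7%, background 13.6%) and 19 at least 2-fold lower (10.7%, background 17%). The median log2 ratio was 0.22, against 0.05 for all IR29 loci. It depended on abundance. For means of at least 100 the median was 0.40, against -0.05 for the other IR29 loci, and for means under 50 it was 0.02, against 0.25 for the others. S-type over nodal roots, the comparison that does not use the L-type library, showed shares near the background. There 38 loci were at least 2-fold higher in S-type (21.5%, background 21.5%) and 29 at least 2-fold lower (16.4%, background 18.5%), with a median log2 ratio of 0.19 against 0.04. Scaled by the total reads of each library, the median of the 177 loci was -0.13 for S-type over nodal, against -0.28 for all IR29 loci, so that its direction depends on the scaling. On that scale the median for L-type over S-type was 0.65, against 0.47. At least 2-fold lower in L-type roots were then 11 loci (6.21%, against 11.1% of all IR29 loci).

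**Figure D4:**
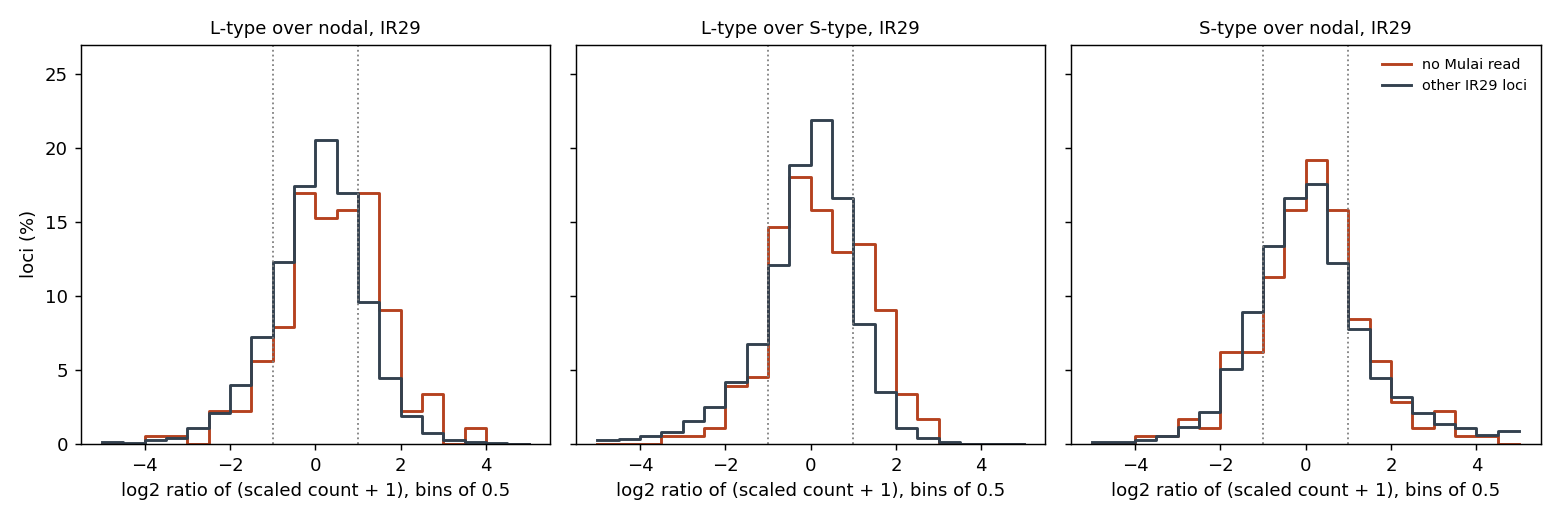
Percentage of loci (vertical axis) by log2 ratio of scaled count + 1 within IR29 (horizontal axis, bins of 0.5, the outermost bins also holding what lies beyond), for the 177 loci without Mulai reads and the other 14718 IR29 loci. Dotted lines mark 2-fold. For L-type over nodal 32.8% of the 177 loci lie at or beyond 2-fold higher, and for S-type over nodal 21.5%.

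The larger share of loci higher in L-type than in nodal roots was seen at each level of abundance, and most among the loci with a mean of at least 100. Of the 55 loci at that level 26 were at least 2-fold higher in L-type than in nodal roots (47.3%), against 18.2% of the 9822 other IR29 loci of that level. From 50 to 100 the counts were 17 of 64 (26.6%) against 15.8% of other loci. Under 50 they were 15 of 58 (25.9%) against 14.5%. In the least abundant class the medians were close, at 0.12 for the loci without Mulai reads and 0.12 for the others.

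Counted by the root type with the highest value, 77 of the 177 loci peaked in L-type (43.5%), 62 in S-type (35.03%) and 38 in nodal roots (21.5%). Among the other 14718 IR29 loci the shares were 32.9%, 34.5% and 32.6% in the same order. L-type roots held at least 2 times the level of both other root types at 22 loci (12.4%), against 3.49% of the other IR29 loci. Nodal roots held at most 1/2 of the level of both lateral root types at 25 loci (14.1%, against 10.7% of the others). At 51 loci the highest value was under 2 times the lowest (28.8%, against 41.5%). Among loci without Mulai reads that missed the minimum in a single IR29 library, 15 missed it in L-type (21.4% of 70), 20 in S-type (28.6%) and 35 in nodal roots (50%). Of the 2191 such loci with Mulai reads, 36.1% missed it in L-type, 34.8% in S-type and 29.0% in nodal roots. The minimum asks for 8 reads in the S-type library and 11 in each of the others. Among the 392 loci read in Mulai and at 0 in IR29, 11.2% were at least 2-fold higher in Mulai L-type than in Mulai nodal roots, against 9.64% of all loci at the Mulai minimum. At least 2-fold higher in Mulai L-type than S-type roots were 6.38% of the 392, against 10.7%, and in Mulai S-type than nodal roots 26.3%, against 18.9%. Shares away from the background were thus not limited to the 177 loci.

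The loci with the steepest differences between root types were named in each direction. They were taken as the 2 highest and 2 lowest ratios among loci with a mean of at least 30 and a counting interval that does not include 1. XLOC_001297 led both lateral types, with 356 in L-type, 474 in S-type and 24.2 in nodal roots of IR29. Its ratio to nodal roots was 14.7 in L-type (95% counting interval 9.45 to 24.1) and 19.6 in S-type (12.6 to 32.1). XLOC_003950, the most abundant locus, came next for L-type, at a ratio over nodal roots of 11.6 (10.02 to 13.5). XLOC_023348 had 102 in L-type, 391 in S-type and 26.5 in nodal roots, and was thus foremost an S-type locus. Its ratio of S-type over nodal was 14.7 (9.62 to 23.7).

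Named for the lowest ratios over nodal roots, 4 loci were read mainly in nodal roots. XLOC_014103 had 42.2 in L-type, 16.5 in S-type and 241 in nodal roots of IR29, a ratio of S-type over nodal of 0.0687 (0.0337 to 0.125). XLOC_026912 had 53.9 in L-type, 21.1 in S-type and 216 in nodal roots, with a ratio of 0.0977 (0.0524 to 0.168). XLOC_029369 had 14.1 in L-type, 34.6 in S-type and 181 in nodal roots, and XLOC_014374 had 18.7, 27.1 and 184 in the same order. At these 4 loci both lateral root types lay below nodal roots. The ratio of L-type over nodal was 0.0776 at XLOC_029369 (0.0393 to 0.139) and 0.102 at XLOC_014374 (0.0567 to 0.170).

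The lateral root types parted from each other at further loci. XLOC_036268 had 174 in L-type, 22.6 in S-type and 69.2 in nodal roots of IR29, a ratio of L-type over S-type of 7.74 (4.54 to 14.2). XLOC_035492 had 74.9 in L-type, 12.03 in S-type and 19.6 in nodal roots, with a ratio of 6.23 (2.98 to 15.0) that rests on 8 S-type reads. The opposite pattern was held by XLOC_029343 and XLOC_008079, which peaked in S-type roots. XLOC_029343 had 14.1 in L-type, 155 in S-type and 47.3 in nodal roots, with a ratio of L-type over S-type of 0.0907 (0.0454 to 0.165). XLOC_008079 had 39.8 in L-type, 320 in S-type and 60.0 in nodal roots, with a ratio of 0.124 (0.0839 to 0.179).

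Some of the loci carried neighbouring identifiers, which the choice did not use. The identifiers run from XLOC_000001 upwards without a gap, and 26 of the 177 loci (14.7%) stood next to another of them, against 0.611% of the other IR29 loci (90 of 14718). They formed 8 pairs, 2 runs of 3 and 1 run of 4. An identifier beside one of the 177 that met the IR29 minimum without a Mulai read is itself one of the 177. Of the neighbours at that minimum, such identifiers made up 25% (30 of 120). Beside the other IR29 loci they made up 0.668% (90 of 13470). These shares count the same neighbours again. Of the identifiers beside the 177 with any IR29 read, 34.1% had no Mulai read (78 of 229), the 30 included. Beside the other IR29 loci it was 4.69% (1018 of 21710). At 0 in all 6 libraries were 26.8% of the identifiers beside the 177 (95 of 354), against 19.1% beside the others. The table gives no positions, so that neighbouring numbers are not shown to be neighbours on a chromosome, nor to be separate genes rather than pieces of a single transcript.

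The longest run was XLOC_022751 to XLOC_022754. XLOC_022751 had 320 in L-type, 235 in S-type and 135 in nodal roots of IR29, and XLOC_022752 had 144, 64.7 and 64.6 in the same order. XLOC_022753 had 38.6, 22.6 and 30.0, and XLOC_022754 had 79.6, 61.7 and 56.5. All 4 were highest in L-type roots. The counting interval of L-type over nodal lay above 1 at XLOC_022751 (1.90 to 2.97) and XLOC_022752 (1.61 to 3.12) and included 1 at XLOC_022753 (0.748 to 2.24) and XLOC_022754 (0.962 to 2.08). In other runs, chosen after their values were seen, members ran alike or apart. XLOC_009449, XLOC_009450 and XLOC_009451 lay between 19.9 and 38.0 in every IR29 library. XLOC_005478 and XLOC_005479 ran apart, the first lower and the second higher in S-type than in nodal roots, with 48.0 against 71.4 in L-type, 12.03 against 236 in S-type and 23.1 against 118 in nodal roots.

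The authors' table also holds a variance for each value, and some of the 177 loci had large ones. The SD it implies was above the value itself in at least 1 IR29 library at 23 of the 177 loci (13.0%), against 5.35% of the other IR29 loci. The excess was smallest among the least abundant loci. It was 20.7% against 17.4% for means under 50, 10.9% against 6.84% from 50 to 100, and 7.27% against 2.37% from 100 upwards. An SD of more than 2 times the value in all 3 IR29 libraries was held by 5 loci (2.82%, against 0.374% of the others). These were XLOC_005468, XLOC_005476, XLOC_005478, XLOC_005479 and XLOC_007589, named after their values were seen, and 4 of their identifiers are close in number. At XLOC_005478 the SD was 6.05 times the value in L-type, 11.8 times in S-type and 10.4 times in nodal roots. The column for uncertain assignment of fragments held 0 for all loci in all 6 libraries.

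**Figure D5:**
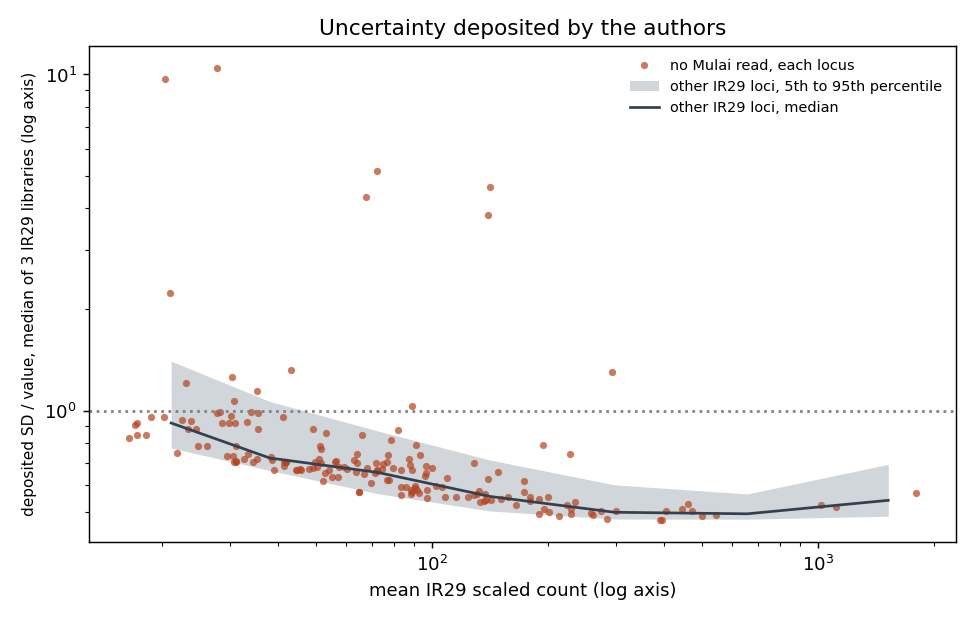
SD implied by the authors' deposited variance, divided by the value and taken as the median of the 3 IR29 libraries (vertical log axis), by mean IR29 scaled count (horizontal log axis), for each of the 177 loci (points) and the other IR29 loci (median line and band from the 5th to the 95th percentile). Most points follow the line, and 7 loci lie above 2 on this median, 5 of them in all 3 libraries.

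An additive model of the cultivar and the root type was applied to the 20316 loci with a scaled count of at least 10 in at least 2 libraries. All 177 loci passed this filter through their IR29 values, as the choice ensures. All 177 were also higher in IR29 at an adjusted p under 0.05 (limma), where 2.86% of all tested loci were higher and 4.52% lower. Since the same contrast chose them, nothing is read from that count. Between root types limma called 0 of the 177 in any of the 3 comparisons, and 0 reached an unadjusted p under 0.05. The background was 10.5% higher and 10.2% lower for S-type over nodal, 0.0492% and 0.00984% for L-type over nodal, and 0% and 0% for L-type over S-type. With all Mulai values at 0, these loci enter the model as unchanged between Mulai root types, so that the fitted change is the mean of the IR29 ratio and 0. The same ratio also enters the residual, and nothing is read from these counts of 0. The count tests were run on recovered reads. In them the Mulai zeros carry no ratio, and the root type estimate rests on 1 IR29 library a side, unlike at loci read in both cultivars. Lower shares called than in the background follow from that, and nothing is read from them either. For S-type over nodal edgeR called 8 of the 177 (4.52%, background 17.9%) and DESeq2 5 (2.82%, background 24.3%). For L-type over nodal edgeR called 0 (background 0%) and DESeq2 1 (0.565%, background 6.37%). At an unadjusted p under 0.05 there were 25 for edgeR (14.1%, against 18.1% of all loci) and 12 for DESeq2 (6.78%, against 17.0%). For L-type over S-type edgeR called 0 (background 0%) and DESeq2 0 (background 5.08%), with 14 unadjusted for edgeR (7.91%, against 16.9%) and 7 for DESeq2 (3.95%, against 16.0%).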

How the data were processed

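The submitters' processing notes name the genome build IRGSP-1.0, the trimmer Trimmomatic 0.32, the aligners Bowtie and TopHat2 2.0.11, and Cufflinks and Cuffdiff, both 2.2.1. The sources used here state no options, no annotation and no handling of strand or shared reads. Overlapping or near-identical loci could therefore not be told apart. The authors deposited a signal for each locus, namely fragment counts that the values show to have been multiplied by 1 factor in each library. Within 0.1 of a read, 100% of the values above 0 in each library were whole multiples of 1 step, and division by it recovered reads. The deposited variances of these values were used as given by the authors. The other 12 columns were not used.

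The loci and lists were chosen with earlier results of these data known. Ratios are of log2(scaled count + 1) or, with intervals, of recovered reads times the step (exact binomial, counting error only). Loci were named by a fixed ranking of abundance, of root type ratios (mean at least 30) and of runs of identifiers. The fit used limma 3.58.1 in R 4.3.3 on log2(scaled count + 1), with an additive model of cultivar and root type, a mean-variance trend and Benjamini-Hochberg adjustment. It left 2 residual degrees of freedom. edgeR 4.0.16 (quasi-likelihood) and DESeq2 1.42.0 on recovered reads were alternatives. For IR29 over Mulai limma called 1500 of 20316 loci, edgeR 1092 and DESeq2 2031. The limma procedure was also run on simulated data. No outcome of that run is given here, and nothing is read from it about the fit to these libraries. Libraries are 1 per cultivar and root type. The spread behind the p-values is thus the departure from the additive model. It mixes root type changes that differ between the cultivars with variation between single libraries.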

Additional observations from a re-analysis of the deposited data

How the results depend on the processing

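The number of loci without Mulai reads (177) was 66 with a minimum of 50 in each IR29 library and 389 where 1 IR29 library at the minimum sufficed, as the construction of these alternatives brings about. Without each library in turn it ran from 186 to 212. Scaling by the total reads of each library moved the median of all IR29 loci to -0.28 for S-type over nodal (0.04 before), 0.22 for L-type over nodal (0.11) and 0.47 for L-type over S-type (0.05). The median log2 ratio of the 177 loci was then -0.13 for S-type over nodal, which turned its direction, and 0.65 for L-type over S-type. On that scale 11 loci were at least 2-fold lower in L-type than in S-type roots (6.21%, against 11.1% of all IR29 loci). Relative to all IR29 loci, the median of the 177 stayed higher under all 8 alternatives to scaling, pseudocount, filter and members. The difference was 0.15 to 0.28 for S-type over nodal, 0.32 to 0.64 for L-type over nodal and 0.16 to 0.30 for L-type over S-type. A change of scaling moves both medians by nearly the same amount, so that the scaling alternatives could hardly change this difference. Alternatives that left out loci with a deposited SD above the value, or kept 1 locus per run of identifiers, were chosen after the data were seen. In the fit across all loci, the filter at 50 tested and called 105 of the 177 for IR29 over Mulai. Of all 14707 loci tested there, 726 were called. For S-type over nodal edgeR called 8 (4.52%, against 17.9% of all loci) and DESeq2 5 (2.82%, against 24.3%), and for L-type over nodal DESeq2 called 1 (0.565%, against 6.37%), where limma called 0. DESeq2 gave no adjusted p for 8 of the 177 loci in the L-type over nodal and 17 in the L-type over S-type comparison. In those count models Mulai zeros carry no ratio, and the estimate rests on 1 IR29 library a side. Without each library in turn limma called 176 to 177 for IR29 over Mulai and 0 in each root type comparison. The choice of loci and the Mulai zeros fix these counts, which are no sign of stability. Of the 85 alternative values for the number of loci and the root type ratios, 80 stayed close to the main value. Close means within 1.5 times for counts, and for medians within a 95% interval from the ranks of the 177 loci. That interval takes the loci as independent although they share the same libraries. The tally is a description and no sign of stability. The additive model already compares root types within a cultivar and cultivars within a root type. By replicate number, no paired analysis was possible because the groups share fewer than 2 of them.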
